A study of Mus musculus with 15 samples.

Results

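The proteasome genes described here are those of the constitutive proteasome, the protease that degrades proteins tagged with ubiquitin. They were taken by symbol from the deposited table. A row was a member when its mouse symbol was protein coding and began with Psma, Psmb, Psmc, Psmd, Psme, Psmf or Psmg and a digit, when it was not 1 of the 3 immunoproteasome genes Psmb8, Psmb9 and Psmb10, and when its normalized count averaged at least 10 over the 15 libraries. The table held 47 such symbols among its 50686 genes, and 44 were members. The other 3 were Psma8 with a mean of 0.298, Psmb11 with 0.185 and Psme2b with 9.85, the last just under the limit. The members just above it were Psmc3ip with 42.1 and Psmg4 with 59.4. By role, 7 members form the alpha ring and 7 the beta ring (together the core), 6 are ATPases of the base, 3 are other base subunits and 8 belong to the lid (these 17 together the cap), 3 are chaperones of base assembly, 4 are chaperones of core assembly and 5 are activators or an inhibitor. Psmc3ip was taken by its symbol alone: it is a cofactor of meiotic recombination and no proteasome subunit.

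RNA came from the quadriceps muscle of adult C57BL/6 mouse offspring killed at 10 months of age, with 3 libraries in each of 5 groups. In the chow group neither parent had eaten a high-fat diet and the dam stayed sedentary during pregnancy. In the maternal arm the dam had eaten a 60% high-fat diet for 6 weeks from 8 weeks of age and was then mated with a lean male of 14 weeks. In the paternal arm the sire had eaten that diet for the same time and was mated with a lean female of 14 weeks. Each arm had a sedentary group, in which the running wheel of the pregnant dam was locked, and an exercised group, in which it turned. All offspring themselves ate chow and were sedentary from the day after birth, so diet and exercise here are always those of a parent. The chow group served both arms. The labels give neither the sex nor the litter of the offspring. P-values therefore measure the spread between these libraries, some of which may share a litter.

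The proteasome is a barrel of stacked rings with a cap at its end. The outer alpha rings form the gate, and the inner beta rings carry the proteolytic sites, of which Psmb6 provides the caspase-like, Psmb7 the trypsin-like and Psmb5 the chymotrypsin-like activity. The cap holds a ring of ATPases that unfold the substrate, subunits that bind ubiquitin and a lid that removes it. Other activators can take the place of the cap on the same barrel. In skeletal muscle the ubiquitin and proteasome system breaks down contractile proteins, and its genes are known to be induced together in muscle wasting. The transcription factors NRF1 (gene Nfe2l1) and NRF2 (gene Nfe2l2) are known to act on proteasome genes through antioxidant response elements in their promoters.

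Because a shared promoter element is the textbook link between these genes, the promoters were searched for it. RefSeq windows from 250 bases before to 50 bases after the start site (GRCm38.p6) matched 37 of the 44 members. The letters TGACNNNGC, the core of the antioxidant response element, stood on either strand in a window of 6 of the 37 members (16.2%) and of 14.0% of all 27025 genes with a window. The 6 were Psmb5, Psmb6, Psmc6, Psmd9, Psmd12 and Psme4. The letters CCAAT, the NF-Y box, stood in 13 of the 37 members (35.1%) and in 41.1% of all genes. Both shares of the members were near those of all genes. The promoters of 4 members with the first motif, in capitals, are printed here, among them those of 2 catalytic subunits. That of Psmd11 stands beside them: it is the lid gene with the largest difference from chow in both exercised groups and holds neither motif in its window. Each runs 5′ to 3′ on the gene's strand from 250 bases before to 10 bases after the start site.

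Psmb5 (chr14:54617986-54618245, minus strand): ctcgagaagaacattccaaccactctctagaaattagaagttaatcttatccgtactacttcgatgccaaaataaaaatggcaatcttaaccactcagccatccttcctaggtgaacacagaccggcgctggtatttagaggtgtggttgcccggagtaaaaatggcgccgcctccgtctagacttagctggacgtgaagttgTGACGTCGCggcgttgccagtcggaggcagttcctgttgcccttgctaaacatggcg
Psmb6 (chr11:70525107-70525366, plus strand): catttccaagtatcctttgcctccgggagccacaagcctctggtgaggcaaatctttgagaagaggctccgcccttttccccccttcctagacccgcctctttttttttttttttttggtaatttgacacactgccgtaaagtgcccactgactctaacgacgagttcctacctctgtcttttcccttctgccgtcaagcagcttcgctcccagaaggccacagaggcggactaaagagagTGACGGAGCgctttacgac
Psmc6 (chr14:45329574-45329833, plus strand): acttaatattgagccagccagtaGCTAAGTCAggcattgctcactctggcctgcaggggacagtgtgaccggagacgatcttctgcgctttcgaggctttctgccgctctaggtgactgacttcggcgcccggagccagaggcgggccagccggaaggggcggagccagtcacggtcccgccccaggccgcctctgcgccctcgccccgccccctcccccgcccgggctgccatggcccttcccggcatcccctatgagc
Psme4 (chr11:30771525-30771784, plus strand): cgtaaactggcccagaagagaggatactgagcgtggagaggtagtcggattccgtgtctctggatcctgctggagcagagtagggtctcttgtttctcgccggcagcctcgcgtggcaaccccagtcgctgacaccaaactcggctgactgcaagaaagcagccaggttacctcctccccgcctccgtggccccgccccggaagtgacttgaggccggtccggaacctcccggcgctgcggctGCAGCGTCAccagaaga
Psmd11 (chr11:80428365-80428624, plus strand): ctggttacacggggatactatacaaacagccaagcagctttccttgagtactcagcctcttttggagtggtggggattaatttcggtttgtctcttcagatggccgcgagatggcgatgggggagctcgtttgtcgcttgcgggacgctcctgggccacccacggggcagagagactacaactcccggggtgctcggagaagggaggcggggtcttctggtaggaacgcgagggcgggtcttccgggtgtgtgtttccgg

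In Psmb5 the motif began 47 bases before the start site and in Psmb6 it began 9 bases before it. In Psmc6 and Psme4 the match was on the opposite strand, so the capitals show its complement read backwards, and it began 227 and 7 bases before the start site.

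The 14 libraries used for count tests held 18457663 to 26981745 recovered reads. The values of chow replicate 2 were also whole multiples of 1 step, but that step was so near 1 that a precaution of the recovery check refused it, and the count tests leave that library out. Values are normalized counts: read counts divided by 1 size factor per library. Skeletal muscle markers such as Acta1 and Ckm, 12 of 12 measured, summed to 216210 to 298491 CPM, counts scaled to one common library total, in every library. Of the 15 libraries, 2 listed fewer genes above 0 than the rest: chow replicate 2 with 17699 and maternal sedentary replicate 3 with 17581, against 19062 to 20771. Liver markers (36 of the 38 listed averaged at least 10) summed to 5573 CPM in maternal sedentary replicate 2, 694 in maternal sedentary replicate 3, 370 in paternal sedentary replicate 1 and 319.9 in chow replicate 2, and to 46.4 to 85.9 in the other 11. None of the exercised libraries is among these 4. The summed level of the 44 members was 3103 to 4176 CPM.

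Per length of exon, the base of the cap was the most abundant part of the constitutive proteasome. Mean normalized counts per kilobase of exon had a median of 1732 over the 3 other base subunits, 1165 over the 6 base ATPases and 716 over the 8 lid subunits, against 816 over the beta ring and 339.6 over the alpha ring. Subunits stand in equal numbers in the assembled particle, but their transcripts did not: Psmc3, an ATPase, reached 2243 per kilobase and Psmc5, another ATPase, 2125, while Psmc6 of the same ring had 367. In the core the range ran from Psma3 with 209 to Psmb6 with 1828. The activators and the inhibitor had a median of 247 and ran from Psmf1, the inhibitor PI31, with 70.3 to Psme4, the activator PA200, with 476. The assembly chaperones were the least abundant, with a median of 92.0 for the core chaperones and 58.7 for the base chaperones. The exon length covers every annotated transcript of a gene, so a gene with a long rare exon has too low a value on this scale.

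**Figure D1:**
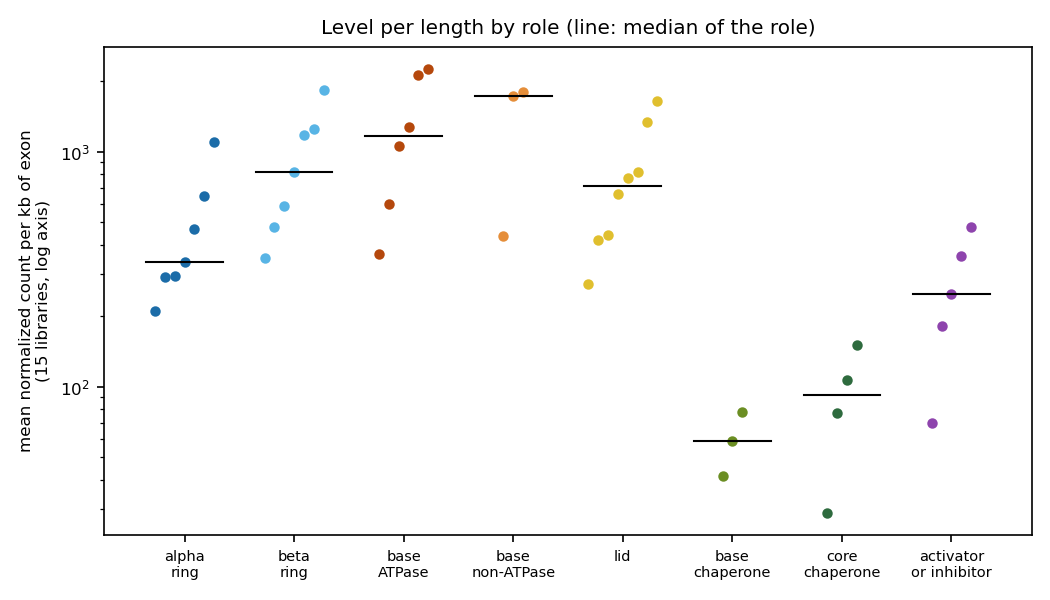
Mean normalized count per kilobase of exon over 15 libraries, on a log axis, for 43 members by role; each point is a gene and each line the median of the role. The base ATPases reach 2243, and the assembly chaperones lie lowest, with 29.0 for Psmg3.

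Members differed in how steady they were. Over all 15 libraries the coefficient of variation was 5.46% for Psmb4, a structural beta subunit, and 6.12% for Psmd13, a lid subunit, and among subunits it was highest with 23.6% for Psmc6 and 22.0% for Psma1. By role its median was 17.1% in the alpha ring and 9.76% in the beta ring, although both rings stand in the same particle. The alpha ring was lowest in the 2 libraries with few detected genes. The median deviation of the alpha ring genes from their own means, on the log2 scale, was -0.53 in chow replicate 2 and -0.65 in maternal sedentary replicate 3, and it lay between -0.18 and 0.31 in the other 13. In the same 2 libraries the beta ring median was 0.032 and 0.081, and that of the core chaperones 0.25 and 0.40. Psmb5 was at its highest there, with 899 and 875. Of the 44 members, 21 had their lowest value in 1 of these 2 libraries, and 16 had it in paternal sedentary replicate 1. The same count was not made over all genes, so whether this is particular to the members is not known. The part of the low gene count in these deviations was not tested.

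**Figure D2:**
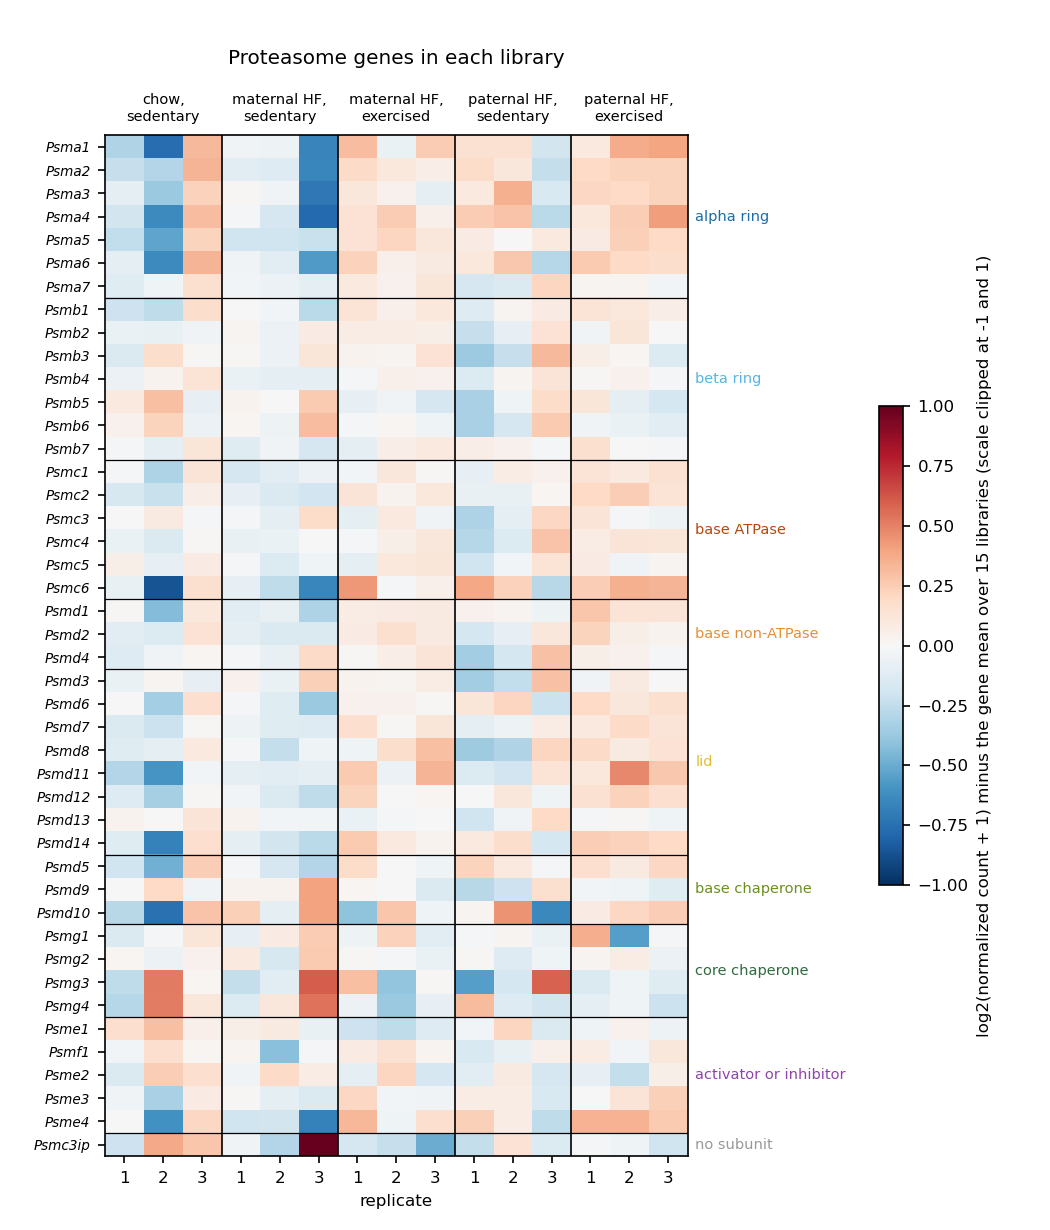
Log2 deviation of each of the 44 members (rows, by role) from its own mean over 15 libraries (columns, by group and replicate), from blue for low to red for high. Columns chow 2 and maternal sedentary 3 are blue over most of the alpha ring, and the 6 exercised columns are mostly red in the alpha ring and the cap.

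The main comparison asks whether running by the pregnant dam went with a different level of proteasome genes in the muscle of the grown offspring. Most core and cap genes were somewhat higher in the exercised groups of both arms, but no member passed the test over all genes. In the maternal arm 30 of 44 members had a higher log2 mean with exercise (50.4% of all genes did), with a median log2 difference of 0.14, against 0.0024 over all 13499 genes tested. In the paternal arm 37 of 44 were higher (51.8% of all genes), with a median of 0.11 against 0.01. Without paternal sedentary replicate 1 the paternal count was 27 of 44 and the median 0.069, against 0.0054 over all genes. With upper quartile scaling they were 29 of 44 and 0.051, but that scaling also moved the median of all genes, to -0.050. These arms share no library, and 30 of the 44 members (68.2%) were higher in both, as were 33% of all genes; 7 members were lower in both. In the mean of both arms 32 of 44 were higher (49.6% of all genes). By role, the median difference was then 0.27 in the alpha ring (7 of 7 higher), 0.18 in the cap (16 of 17), 0.057 in the beta ring (5 of 7), 0.12 among activators and inhibitor (3 of 5) and -0.069 among core chaperones (0 of 4).

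By limma's test with Benjamini-Hochberg adjustment over all genes, 0 of 44 members passed an adjusted p of 0.05 in either arm or in their mean, and neither did any other gene (0% in each). At an unadjusted p of 0.05, 6 members were higher in the maternal arm (4.21% of all genes) and 0 lower (5.33%), 2 were higher in the paternal arm (1.84%) and 0 lower (1.93%), and 10 were higher in the mean of both arms (6.34%) and 0 lower (5.42%). These counts rest on few libraries. When 1 library was left out, they varied, here in either direction with the share of all genes in brackets. In the maternal arm the count ran from 1 without maternal sedentary replicate 3 (3.37%) to 12 without chow replicate 2 (11.9%) or 3 (10.4%). In the paternal arm it was 0 without sedentary replicate 1 (3.19%), sedentary replicate 2 (2.1%) or exercised replicate 2 (2.3%). It was 9 without paternal sedentary replicate 3 (7.82%). In the mean of both arms it ran from 6 without maternal sedentary replicate 3 (7.27%) to 16 without chow replicate 3 (12.3%). With upper quartile scaling the mean of both arms gave 4 of 44, a smaller share than that of all genes (12.3%). In all libraries the shares of all genes were 9.54% in the maternal arm, 3.76% in the paternal arm and 11.8% in their mean.

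On the recovered reads of 14 libraries, edgeR called 0 members in the mean of both arms (0% of all genes), with 14 at an unadjusted p of 0.05 (15% of all genes). Voom called 0 (0%), with 16 at that p (12.9%). DESeq2 called 1, Psmc2 (1.28% of all genes), with 16 at that p (15.2%). For the exercise difference of the maternal minus that of the paternal arm, 0 members passed by limma (0% of all genes). Likewise 0 had an unadjusted p under 0.05 by limma (1.8% of all genes), edgeR (2.36%), DESeq2 (2.74%) or voom (1.88%). The lowest p by limma was 0.219, for Psmc3ip, which is no subunit, and the next was 0.226, for a base chaperone. The count of members above or below 0 is a description, since the subunits are measured in the same libraries and are not independent of each other. In bulk muscle, more RNA of a gene per fibre and a larger share of the cells that express it cannot be told apart.

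Markers of other cells differed between the same groups. With exercise, 36 of 36 liver markers were lower in the mean of both arms (median -2.34 on the log2 scale), 36 of 36 in the maternal arm and 22 of 36 in the paternal arm. Of 10 macrophage markers, 9 were lower in the maternal and 10 in the paternal arm, and of 5 erythrocyte markers, 4 and 5 were higher. Of 12 skeletal muscle markers, 11 were lower in the maternal and 5 in the paternal arm. The summed level of erythrocyte markers ran from 33.1 to 99.8 CPM in the 6 sedentary libraries of the arms and from 58.4 to 135 in the 6 exercised ones, and that of muscle markers from 216210 to 298491 and from 221424 to 278295. The part of macrophages, erythrocytes and muscle fibres in the proteasome values was not tested, and for liver the values without the 4 libraries and with a liver score in the fit are given after the chaperones.

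By the 3 values of each group, 18 members were higher without overlap in the maternal arm (8.56% of all genes) and 3 were lower (8.61%), and in the paternal arm 8 were higher (5.11%) and 0 lower (5.5%). The 8 were Psma2, Psmc1, Psmc2, Psmd1, Psmd7, Psmd12, Psmd14 and Psme4, each of them also higher without overlap in the maternal arm. They hold 1 gene of the core, 6 of the cap and 1 activator.

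**Figure D3:**
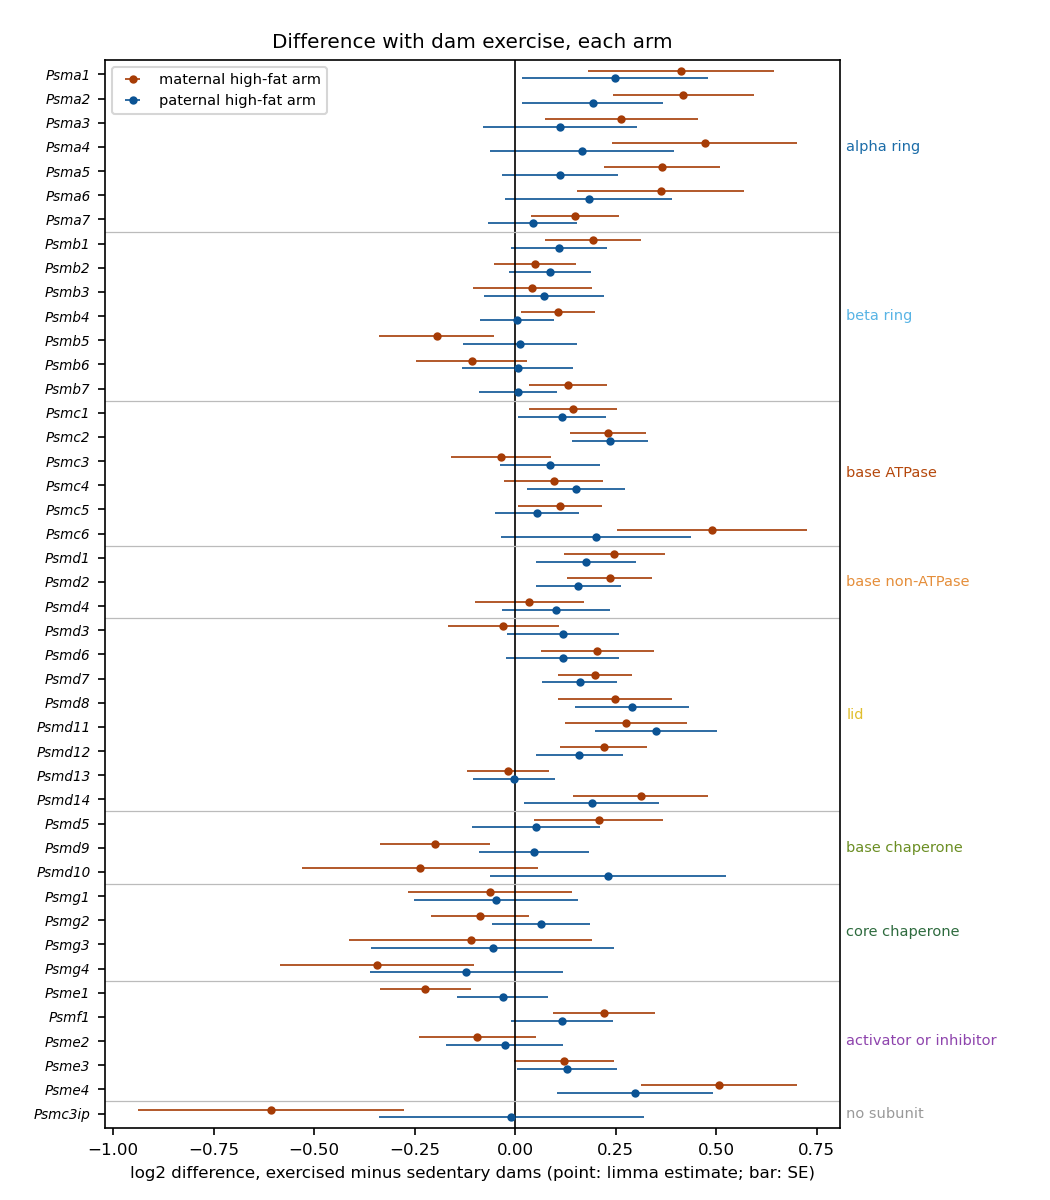
Log2 difference between exercised and sedentary dams for each of the 44 members (rows, by role) in the maternal arm (brown) and the paternal arm (blue); points are limma estimates and bars their SE. Alpha ring, base and lid points lie mostly right of 0 in both arms, and Psmb5, Psme1 and the core chaperone genes lie at or left of 0 in the maternal arm.

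In the alpha ring, the gate of the barrel, all 7 genes were higher with exercise in both arms. Psma5, the alpha subunit also called zeta, measured 531, 531 and 523 in the maternal sedentary group and 675, 707 and 661 in the exercised group. These groups did not overlap, with a log2 difference of 0.37 ± 0.14 (SE; adjusted p = 0.516). The paternal groups measured 645, 613 and 653 with sedentary and 645, 719.7 and 702 with exercised dams, and these overlapped. Psma1 measured 824, 817 and 535 in the maternal sedentary group against 1045, 808 and 1007 in the exercised group. The exercised values of Psma1 overlapped the sedentary ones, because replicate 2 of the exercised group lay below 2 of the sedentary libraries, and the difference was 0.41 ± 0.23 (SE; adjusted p = 0.534). Psma1 measured 937, 938 and 745 against 905, 1092 and 1112 in the paternal arm, with 1 overlapping library. Psma7 was the steadiest alpha gene, with 1945, 1901 and 1850.0 and 2118, 2045 and 2155 in the maternal arm and 1766, 1789 and 2295 and 2020.4, 2021 and 1943 in the paternal arm. Of the remaining 4 genes, Psma2, Psma4 and Psma6 did not overlap between the maternal groups and Psma3 did. The maternal alpha ring median of 0.37 rested in part on maternal sedentary replicate 3, the library with the fewest detected genes: without it the median was 0.21, still with 7 of 7 genes higher. Without paternal sedentary replicate 3 the paternal median was 0.065 in place of 0.17. Over the alternatives 5 to 7 of the 7 alpha ring genes were higher in the paternal arm. In the chow group Psma1 measured 686, 499 and 1056 and Psma7 1827, 1928 and 2209, so for Psma1 replicate 3 alone was as high as the exercised libraries.

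The beta ring, which cuts the substrate, showed smaller differences of mixed sign. Psmb5, the chymotrypsin-like subunit, measured 745, 730.4 and 875 in the maternal sedentary group and 688, 710.4 and 649 in the maternal exercised group. All exercised values lay below the sedentary ones, with a difference of -0.20 ± 0.14 (SE; adjusted p = 0.583). The paternal groups measured 584, 709 and 827 and 792, 687 and 645 for Psmb5, which overlapped widely. Psmb6, the caspase-like subunit, measured 3454, 3290.0 and 4215 against 3363, 3444 and 3301 in the maternal arm and 2722, 3026 and 4069.6 against 3324, 3243 and 3152 in the paternal arm. Its groups overlapped in both arms, and the paternal sedentary values enclosed the exercised ones. Psmb7, the trypsin-like subunit, measured 1503, 1597 and 1452 against 1529.8, 1707 and 1751 and 1715, 1686 and 1622 against 1823, 1628 and 1608. None of the 3 catalytic genes of the constitutive core was higher beyond the spread of its libraries. Their chow values were 780.3, 899 and 687 for Psmb5, 3496, 3959 and 3263 for Psmb6 and 1622, 1538 and 1776 for Psmb7. Among the 4 structural beta genes, Psmb1 and Psmb4 were higher without overlap in the maternal arm and none was so in the paternal arm. The paternal beta ring median was 0.012, near the 0.010 of all genes. With scaling to total counts it was -0.074, but there the median of all genes was -0.075. Without paternal sedentary replicate 1 it was -0.064, against 0.0054 over all genes.

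In the base, the ring of ATPases and its scaffolds, Psmc2 and Psmd1 were the 2 members whose 6 exercised libraries all lay above all 6 sedentary libraries of the arms, as did 0.548% of all genes. Psmc2, the ATPase Rpt1, measured 2830.1, 2716 and 2628 in the maternal sedentary and 3286, 3075 and 3237 in the maternal exercised group. The paternal values were 2858, 2854 and 3038 and 3453, 3551 and 3298. The differences were alike in size, 0.23 ± 0.094 (SE) and 0.24 ± 0.094, and their mean was 0.23 ± 0.067, or 1.18-fold (adjusted p = 0.394 by limma). Over the alternative analyses this adjusted p ranged from 0.0338, by DESeq2 on 14 libraries, to 0.828. Psmd1, the large scaffold Rpn2, measured 2926, 3007 and 2554 and 3334, 3350.3 and 3361 in the maternal arm and 3265, 3221 and 3055 and 3841, 3488 and 3458 in the paternal arm. The 3 maternal exercised values lay within 1% of their mean, and the mean difference of both arms was 0.21 ± 0.088 (SE; adjusted p = 0.419). In chow replicate 3, which is no part of this comparison, Psmc2 measured 3147 and Psmd1 3409.8, within the range of the exercised libraries.

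The other base genes differed less or less evenly. Psmc4, the ATPase Rpt3, measured 2167, 2179.8 and 2295 against 2253, 2376 and 2469 in the maternal arm and 1879, 2076 and 2789.8 against 2402, 2497 and 2488 in the paternal arm, where the sedentary values enclosed the exercised ones. Psmd4, the ubiquitin receptor Rpn10, measured 4974, 4756 and 5722 against 5072, 5246 and 5478 and 3949, 4443 and 6138 against 5218, 5161 and 4941, with overlap in both arms. Psmd2, the scaffold Rpn1, was higher by 0.20 ± 0.075 (SE) in the mean of both arms (adjusted p = 0.399). Psmc6, the ATPase Rpt4, had the largest difference of the base, 0.49 ± 0.24 in the maternal arm, but also the widest spread: it measured 686 in chow replicate 2 and 1682 in maternal exercised replicate 1. In the chow group Psmc4 measured 2184, 2069.6 and 2307, Psmd4 4587, 4901 and 5090.1 and Psmd1 3194, 2339 and 3409.8.

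In the lid, which removes ubiquitin from substrates, 6 of 8 genes were higher with exercise in both arms. Psmd11, the lid subunit Rpn6, measured 2619, 2587 and 2606 in the maternal sedentary group and 3329, 2675 and 3516 in the exercised group. All exercised values were the higher ones there, the lowest by a small margin. The paternal groups had 2523, 2431 and 3062 and 2988, 3887 and 3349, with 1 overlapping library. The mean difference of both arms was 0.31 ± 0.11 (SE; adjusted p = 0.394). When the leading code of the sample titles, which the labels do not explain, entered the fit, it was 0.54. In that fit only maternal exercised replicate 3 and paternal exercised replicate 2 shared a code with a sedentary library of their arm. The 0.54 thus rested on 1 exercised library per arm, the highest Psmd11 value of each. Psmd14, the deubiquitinase Rpn11, measured 713, 668 and 628 against 909.9, 811 and 776 in the maternal arm and 810.0, 856 and 671 against 898, 887 and 869.7 in the paternal arm. It did not overlap between the groups of either arm, and the mean difference was 0.25 ± 0.12 (SE; adjusted p = 0.426). Psmd12, the lid subunit Rpn5, measured 2003, 1842 and 1712 against 2370.5, 2045 and 2063 and 2033, 2205 and 1976 against 2266, 2383 and 2288, with a mean difference of 0.19 ± 0.077. Psmd8, the lid subunit Rpn12, measured 3159, 3277 and 4692 against 4631, 4306 and 4468 in the paternal arm, where sedentary replicate 3 stood above all exercised libraries, and 3985, 3429.8 and 3926 against 3933, 4574 and 4987 in the maternal arm. In the chow group Psmd8 measured 3724, 3801 and 4325 and Psmd14 696, 475 and 849. Psmd7 was higher by 0.18 ± 0.065 and Psmd13 differed by -0.011 ± 0.072 in the mean of both arms.

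Activators bind the end of the barrel in place of the cap, and their genes did not go one way. Psme4, which encodes PA200, an activator found mainly in the nucleus, measured 3389.9, 3424 and 2438 in the maternal sedentary and 4907, 3778 and 4379 in the maternal exercised group. The groups did not overlap, and the difference of 0.51 ± 0.19 (SE), or 1.42-fold, had the smallest p of all members in that arm (adjusted p = 0.516). Psme4 in the paternal arm measured 4604, 4099 and 3266 against 4953, 4958 and 4670.1, again without overlap. It was, like the alpha ring, low in chow replicate 2 and maternal sedentary replicate 3. Psme1 and Psme2 encode the 2 subunits of PA28, the activator that interferon induces together with the immunoproteasome. Psme1 measured 567, 578 and 518 against 470.2, 457 and 497 in the maternal arm, where the exercised values were all lower, with a difference of -0.22 ± 0.11 (SE; adjusted p = 0.522). Psme2 measured 311, 365 and 336 against 299, 369 and 284, which overlapped. In the paternal arm the Psme1 values were 535, 630.2 and 491 against 529, 559 and 524, and those of Psme2 were 294, 340.1 and 284 against 301, 269.7 and 331. Neither separated the paternal groups. Psme3, the nuclear activator PA28 gamma, measured 1063, 985 and 954 against 1215, 1033 and 1025 and 1107, 1108 and 945 against 1054, 1152 and 1245. Psmf1, the inhibitor PI31, measured 460.2, 338 and 446 against 476, 502 and 459.6 and 405, 427 and 466 against 474, 443 and 488, with 1 low value in maternal sedentary replicate 2. The chow values were 3881, 2560.5 and 4503 for Psme4, 288, 379 and 358 for Psme2 and 1026, 839 and 1115 for Psme3.

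**Figure D4:**
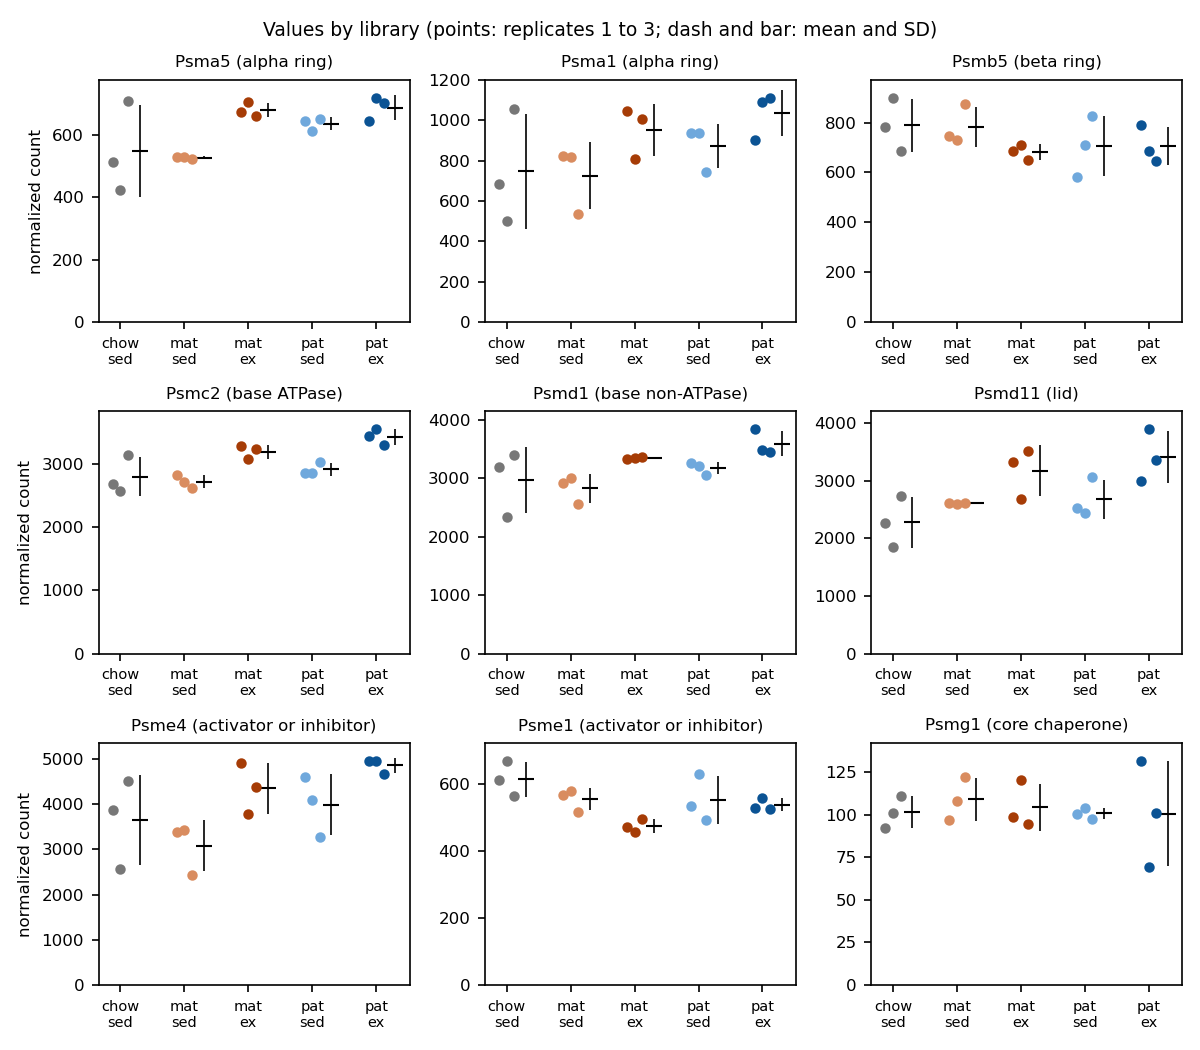
Normalized counts of 9 members in each library, by group (chow, maternal and paternal arm, sedentary or exercised dams), with the mean and SD beside the 3 points. Psmc2 and Psmd1 are higher in every exercised library than in any sedentary library of the arms, Psmb5 and Psmg1 are not, and Psme1 has its lowest group mean in the maternal exercised group.

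The genes of the assembly chaperones had differences of mixed sign. Of the 4 core chaperones, 0 were higher with exercise in the maternal arm and 1 in the paternal arm, and of the 3 base chaperones, 1 and 3 were. Without maternal sedentary replicate 3, where the core chaperones were high, 3 of the 4 core chaperones were higher in the maternal arm. Psmg1, which pairs with Psmg2 to start the alpha ring, measured 96.9, 108 and 122 against 98.7, 120.2 and 94.6 in the maternal arm and 101, 104 and 97.5 against 132, 69.5 and 101 in the paternal arm. Its paternal exercised values held both the lowest and the highest of all 15 libraries, and its chow values were 92.5, 101 and 111. Psmd9, a base chaperone, was lower without overlap in the maternal arm, with a log2 difference of -0.20 ± 0.14 (SE; adjusted p = 0.572). These genes are measured at low levels, with means of 59.4 to 564 normalized counts, below those of most subunits. Psmc3ip, which is no subunit, measured 97.3 in maternal sedentary replicate 3 and 28.2 to 52.5 elsewhere.

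Without the 4 libraries with the most liver transcripts the median exercise differences were smaller in core and cap and kept their sign. That left only replicate 1 of the maternal sedentary group and replicates 2 and 3 of the paternal one, so the kept sign rests on few libraries. In the mean of both arms the core median was 0.064 with 11 of 14 genes higher, against 0.12 with 12 of 14 in all libraries, and the cap median was 0.14 with 14 of 17 higher. Without the 2 libraries with few detected genes the alpha ring median was 0.21 (7 of 7 higher) and the cap median 0.16 (16 of 17). Over all 44 members, the median without the 4 libraries was 0.068 in the mean of both arms, with 31 higher. In the maternal arm it was 0.093, with 34 higher. With 1 maternal sedentary library left, no p-values are given for that fit. The liver score, the mean log2 level of the liver markers, was then used as a covariate in all libraries. The median was 0.076 in the mean of both arms, with 31 higher and 3 at an unadjusted p under 0.05 by limma (4.93% of all genes). In the maternal arm it was 0.077, with 26 higher and 0 at that p (2.54%). In the paternal arm the count in the core rested on 1 library: 8 of 14 genes were higher without paternal sedentary replicate 1, a library with liver transcripts, against 14 of 14 with it, and its median was 0.037 against 0.10.

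**Figure D5:**
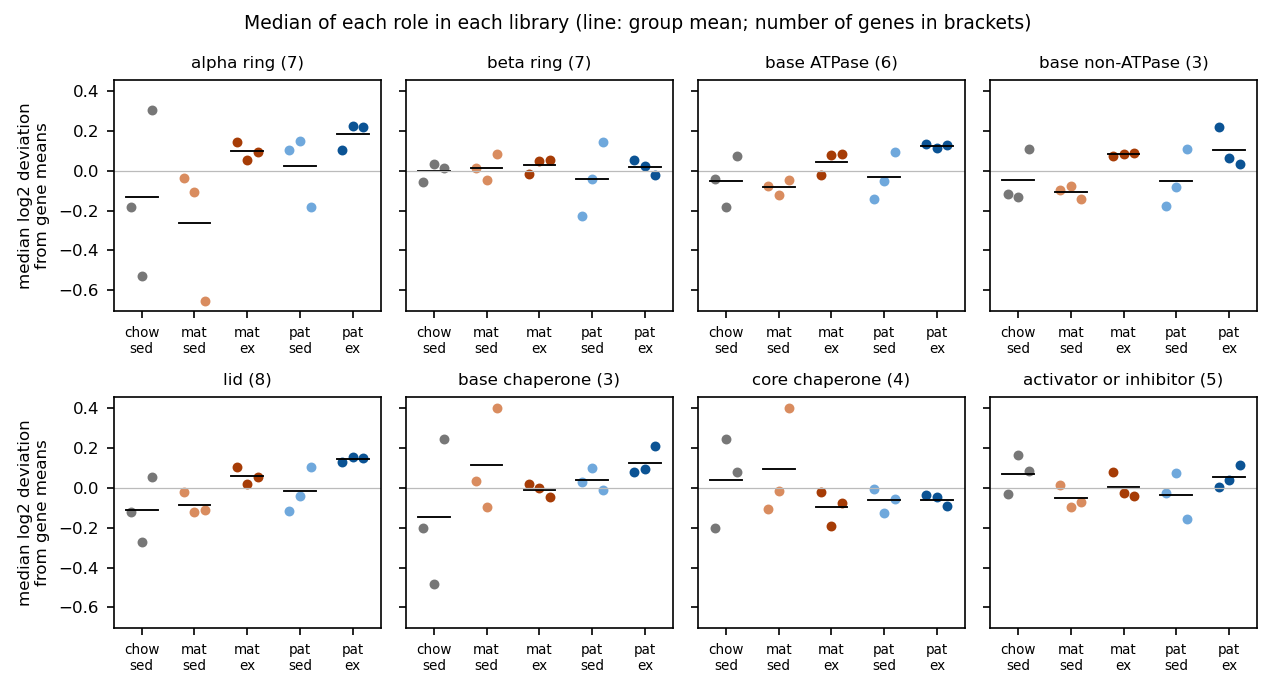
Median log2 deviation from the gene means in each library for 8 roles, by group; points are replicates 1 to 3 and lines group means. In base ATPases, base non-ATPases and lid all paternal exercised points lie above 0, and the alpha ring points of chow replicate 2 and maternal sedentary replicate 3 lie at -0.53 and -0.65.

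Between the sedentary offspring of a parent on high-fat diet and the chow group, the members showed no common direction. Against chow, the maternal sedentary group had a median of -0.0097 over the members, with 18 of 44 higher (53% of all genes), and the paternal sedentary group had 0.012, with 23 of 44 higher (51%). The alpha ring median was -0.10 in the maternal comparison, with 0 of 7 higher, and 0.18 in the paternal one, with 6 of 7 higher. Neither kept its sign: over the alternatives they ran from -0.32 to 0.086 (0 to 5 of 7 higher) and from -0.026 to 0.40 (3 to 7 of 7). The chow libraries themselves lay far apart, with alpha ring median deviations of -0.18, -0.53 and 0.31. By limma 0 members passed the adjusted p in either (0% of all genes), and 0 had an unadjusted p under 0.05 (4.04% and 2.87% of all genes). With edgeR, DESeq2 and voom on 14 libraries 0 passed in either (DESeq2 called 0.467% of all genes in the maternal comparison, and 0% was called otherwise). At an unadjusted p under 0.05 there were 2 members by each tool in the maternal comparison (6.6% of all genes by edgeR, 6.5% by DESeq2 and 4.79% by voom) and 0 in the paternal one (1.17%, 1.42% and 1.3%). The 3 members with the smallest p in the maternal comparison were Psmf1, Psmd10 and Psmd11. Psmf1 measured 441, 505 and 457 in the chow group against 460.2, 338 and 446 (difference -0.18 ± 0.13, SE; adjusted p = 1.00). Without the 4 libraries with liver transcripts, which left 1 maternal sedentary library, its difference was 0.036. Psmd10, the base chaperone gankyrin, measured 69.1, 49.5 and 102 against 98.7, 78.2 and 111, a wide spread at a low level, and its values in the other groups were 63.1, 102 and 81.1 (maternal exercised), 85.5, 115 and 53.2 (paternal sedentary) and 88.5, 96.6 and 99.4 (paternal exercised). Psmd11 measured 2264, 1842 and 2726 in the chow group, with the lowest of its 15 values in replicate 2. In the paternal comparison the smallest p-values were those of Psma5, at 515, 423 and 711 in chow against 645, 613 and 653, Psmd11 and Psmd12, which measured 1858, 1620.1 and 2056 in chow. Chow replicate 3 exceeded both high-fat sedentary groups in Psma5, and none of these 5 genes separated a sedentary group from the chow group. In the maternal comparison 1 member, Psmb4, was lower without overlap (3.58% of all genes) and 0 were higher (4.44%), and in the paternal comparison 0 were apart in either direction (2.64% higher and 3.05% lower). Psmb4 measured 2348, 2498 and 2685 in chow and 2334, 2300.3 and 2292 in the maternal sedentary group, a difference of -0.12 ± 0.092 (SE; adjusted p = 1.00 by limma).

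Against chow, the exercised groups were higher in most core and cap genes. In the paternal exercised group the members' median was 0.16 with 31 of 44 higher (49.9% of all genes), and 10 were higher at an unadjusted p of 0.05 (8.09% of all genes) and 0 lower (5.62%); by the adjusted p of limma 0 passed (0% of all genes). The 10 (13.7% of all genes in either direction) became 3 without chow replicate 2 (5.16%) and 20 without chow replicate 3 (21.1%). They became 4 without exercised replicate 2 (6.85%) and 6 without exercised replicate 3 (11.3%). Without the 4 libraries with liver transcripts the members' median was 0.087, with 30 higher. On recovered reads, without chow replicate 2, 0 passed (0%), and 2 had an unadjusted p under 0.05 by edgeR (5.16% of all genes), 4 by DESeq2 (5.24%) and 3 by voom (4.93%). Psmd11 had the smallest p of all members in any comparison of groups: it measured 2264, 1842 and 2726 in the chow group against 2988, 3887 and 3349, a difference of 0.59 ± 0.15 (SE), or 1.51-fold (adjusted p = 0.284). The groups did not overlap. Psmc2, at 2688, 2574 and 3147 in chow, was higher by 0.30 ± 0.094 and Psmd12 by 0.33 ± 0.11, both without overlap. In that group 10 members were higher without overlap (11.7% of all genes) and 1, Psme1, was lower (8.7%). In the maternal exercised group the median against chow was 0.11 with 32 of 44 higher (52.5%), and 3 were higher (4.91%) and 1 lower (3.85%) at an unadjusted p of 0.05; by the adjusted p 0 passed (0%). The 4 (8.76% of all genes in either direction) became 2 without chow replicate 1 (6.75%) or 2 (3.47%) and 17 without chow replicate 3 (16.5%). Without overlap 2 were higher (5.54%) and 1 lower (4.72%). The lower one by both counts was Psme1, which measured 611, 669 and 564 in chow, a difference of -0.37 ± 0.11 (SE; adjusted p = 0.566). Both comparisons use the chow libraries that served the sedentary groups, so their values are not independent of those above. They also lean on chow replicate 2: without it the alpha ring median was 0.16 against 0.34 in the paternal exercised group and 0.068 against 0.26 in the maternal exercised group. Without chow replicate 3, where the alpha ring was high, these medians were 0.56 and 0.50. Over all 5 groups, limma's F test called 0 members (0% of all genes), and 6 had an unadjusted p under 0.05 (6.71% of all genes): Psmd11, Psmc2, Psme4, Psmd12, Psma5 and Psmd7. By DESeq2 0 members passed over the 5 groups (1.57% of all genes) and 9 had an unadjusted p under 0.05 (9.47%). By edgeR these were 0 (0%) and 6 (7.51%), and by voom 0 (0%) and 8 (5.04%).

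The immunoproteasome genes, which interferon induces to replace the 3 catalytic subunits, were lower in the exercised than in the sedentary maternal group. Psmb9 measured 45.7, 43.4 and 46.3 in the chow group, 115, 87.0 and 86.4 in the maternal sedentary group and 26.5, 47.4 and 60.8 in the maternal exercised group. Psmb8 measured 59.9, 90.9 and 81.9, 133, 104 and 145 and 60.1, 72.9 and 82.2 in the same groups, and Psmb10 205, 232 and 176, 227, 226 and 274 and 166, 203 and 192. None of the 3 overlapped between the maternal sedentary and exercised groups, and 8.61% of all genes were likewise lower without overlap. The differences were -1.15 ± 0.27 (SE) for Psmb9, -0.82 ± 0.20 for Psmb8 and -0.37 ± 0.16 for Psmb10, each at an adjusted p of 0.516 by limma. In the paternal arm all 3 genes overlapped, with means of 55.8 ± 6.38 against 54.6 ± 12.1 (SD, n = 3) for Psmb9. The exercise difference of Psmb9 differed between the arms by -1.10 ± 0.38 (SE; adjusted p = 0.999). Macrophage markers (10 of 13 averaged at least 10) summed to 38.1, 79.0 and 54.0 CPM in the maternal sedentary and 35.1, 28.9 and 91.6 in the maternal exercised libraries; their part in these values was not tested.

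Around the proteasome, each of 5 lists of related genes had more genes higher than lower with exercise in the mean of both arms, where 49.6% of all genes were higher. Of 10 ligase genes, 8 were higher in the mean of both arms and 6 had an unadjusted p under 0.05 (6.34% of all genes were higher at that p), with a median of 0.24. Trim63 (MuRF1), which tags myosin and other thick filament proteins, measured 50428, 44321 and 48107 against 62892, 43773 and 118067 in the maternal arm and 28891, 21955 and 56876 against 56604, 92598 and 70144 in the paternal arm. Fbxo32 (atrogin-1) measured 39088, 34358 and 24409 against 48357, 33085 and 62018 and 34846, 28518 and 36779 against 41584, 52659 and 52092. The groups overlapped for both genes in the maternal arm and for Trim63 in the paternal arm, and Fbxo32 was higher without overlap there. The differences in the mean of both arms were 0.82 ± 0.24 (SE) for Trim63 and 0.54 ± 0.17 for Fbxo32 (adjusted p = 0.394 for each by limma). Among 11 regulators of proteasome genes 7 were higher and 3 had an unadjusted p under 0.05: Ddi2, the protease that activates NRF1, by 0.36 ± 0.13, Nfe2l2 by 0.35 ± 0.13 and Foxo3, a factor that drives ligase genes in atrophy, by 0.39 ± 0.16. Nfe2l1 itself measured 27254, 25269.6 and 27520.2 against 23477, 24273 and 27204 and 23091, 22662 and 25910.0 against 24968, 26212 and 23748, a mean difference of -0.015 ± 0.074. Of 11 other proteasome parts 8 were higher, 3 of them at an unadjusted p under 0.05: Ecpas, a factor that binds the assembled proteasome, Zfand5, a proteasome activator, and Akirin2, which carries proteasomes into the nucleus. Of 9 shuttle and unfoldase genes 7 were higher, 3 at that p (Ufd1, Nploc4 and Rad23b), and of 6 ubiquitin and E1 genes 5 were higher, 0 at that p. No gene of these lists passed the adjusted p in the mean of both arms. The lists were not followed through the alternatives, such as left-out libraries or the liver score. In the maternal sedentary libraries the median log2 deviation of the ligase list was 0.017, -0.12 and -0.26, the last in the library with the fewest detected genes.

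Gene models limit a few of these values. Exons of 12 members share bases with another annotated gene, and in Psmd9 (25.5% of its exon bases) and Psmc3ip (21.2%) the shared part is at least 20%. No source used here gives the strand setting of the counting, so reads of Psmd9 and of its antisense neighbour cannot be told apart.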

How the data were processed

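Total RNA of 15 quadriceps samples was depleted of ribosomal RNA and sequenced as stranded single-end 100-base libraries, per the labels' protocols. The submitters' processing notes name STAR 2.5.2b, featureCounts 1.5.2, DESeq2 1.11.8 and the mm10 genome; no source used here gives the strand setting of the counting. The deposited signal is 1 table of normalized counts by gene; its values are whole multiples of 1 step per library, as read counts divided by a size factor give.

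Symbols and biotypes came from GENCODE M21 (GRCm38; 50462 of 50686 gene IDs matched, 99.6%). Genes with a mean of at least 10 (13499) were tested with limma 3.58.1 (R 4.3.3) on log2(normalized count + 1), all 15 libraries in 1 fit with a trended prior, and p-values were adjusted by Benjamini-Hochberg over all genes of a comparison at 0.05. The pseudocount of 1 makes fold changes of genes with few counts too small. Whole reads, within 0.001 of a whole number, were taken as recovered in 14 libraries, and chow replicate 2 was refused by the recovery check for its step near 1; edgeR 4.0.16, DESeq2 1.42.0 and voom ran on the 14 as alternatives. The fit was tested on simulated data. Alternatives covered pseudocount, filter, scaling, tool, groups in the fit, libraries left out, a liver score and the title code. Values in every library are given for the 3 members with the smallest p in each comparison of groups and for members fixed by role; others named were chosen after their values were seen. Members, lists and tests were chosen with earlier results of these data known. Promoter windows came from RefSeq.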

Additional observations from a re-analysis of the deposited data

How the results depend on the processing

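Under 30 alternatives, no tool, scaling, filter or left-out library called a member in a comparison of 2 groups, in the difference between the arms or over the 5 groups. In the mean of both arms DESeq2 called 1 member (Psmc2, adjusted p 0.0338 by DESeq2, with 1.28% of all genes called). The fit with the title code gave 0.54 for Psmd11 there. It rested on 1 exercised library per arm, so no call is counted for it. On recovered reads, without chow replicate 2, the members' median against chow was -0.10 (edgeR), -0.092 (DESeq2) and -0.097 (voom) in the maternal sedentary group, 0.030, 0.031 and 0.031 in the maternal exercised group, and 0.076, 0.072 and 0.082 in the paternal exercised group. In the last it was 0.089 with upper quartile scaling, where the median of all genes was -0.067. It was 0.087 both without the 4 libraries with liver transcripts and without the 2 with few detected genes. Scaling to total counts shifted the median of all genes by up to 0.19 (maternal minus paternal arm). For exercise it gave 0.24 in the maternal arm (0.11 over all genes) and 0.026 in the paternal arm (-0.075 over all genes). For their difference it gave 0.20 (0.19 over all genes). Against chow it gave 0.18 in the maternal exercised group (0.092 over all genes) and 0.11 in the paternal sedentary group (0.10 over all genes). Leaving out 1 library gave -0.087 (without chow replicate 2) to 0.054 (without chow replicate 3) in the maternal sedentary group against chow, 0.043 to 0.18 in the maternal exercised and 0.087 to 0.22 in the paternal exercised group, with the same libraries at the ends. Of 29 pairs of a gene and a comparison followed through the alternatives, 2 reversed. Against chow, Psmf1 went to 0.036 in the maternal sedentary group without the 4 libraries with liver transcripts, which left 1 library in that group. Psmd11 went to -0.21 in the paternal sedentary group with the title code. The cause was not tested. Other members were not followed in this way, and some changed sign. Core genes of the paternal arm did so without paternal sedentary replicate 1, as given above. The title code could not be fitted for the maternal groups against chow or over the 5 groups. No paired analysis was possible because the labels carry no replicate numbers that could link samples across groups. In simulated data for the maternal exercise comparison, limma found 63% of 2-fold and 96% of 4-fold changes (100 genes each of 13499); changes as small as those of the members were not simulated.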
